A study of Homo sapiens with 4 samples.

Results

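The MYC and MAX network is a set of transcription factors that pair with each other through a basic helix-loop-helix leucine zipper and bind E-box sequences in DNA. Its 9 members here are MYC, MAX, MXD1, MXD3, MXD4, MXI1, MNT, MGA and MLX, chosen by name and function from 22798 genes counted on their own strand. All 9 had an entry in each of the 4 libraries. MYC encodes the activator that drives growth and ribosome production and that needs MAX as its partner. The MXD proteins, MXI1, MNT and MGA also pair with MAX and repress, so they compete with MYC for the same partner and the same sites. MLX is a MAX-like protein that pairs with MXD1, MXD4, MNT and the Mondo proteins.

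Nascent RNA was sequenced from Karpas 299, a long-established human line of ALK-positive anaplastic large cell lymphoma, by Bru-seq. The method captures RNA that took up bromouridine, here in the last 30 min of a 3 h treatment, and so the reads come from RNA made in that window. The 4 conditions were SM-164, a small molecule that mimics Smac and so blocks IAP proteins, with its solvent control DMSO, and co-culture on CD30L+ CHO cells, which carry the ligand of CD30, with its control co-culture on CHO cells. CHO is a Chinese hamster ovary line, and all 4 conditions used the same lymphoma line and the same treatment time. No source used here states the dose of SM-164. Library totals were 26217591 reads with SM-164, 31030476 with DMSO, and 45535363 on CD30L+ CHO cells against 45885630 on CHO cells. Each condition has 1 library, so no difference has a replicate check and no p-value was computed, and every interval below is a 95% interval that covers counting error only. Fewer transcribing cells and less nascent RNA per cell cannot be told apart in such libraries.

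The label of the line was checked on marker genes. Of 10 lymphoma and T cell markers, 7 to 8 reached an RPKM of 0.5 in each library, led by IL2RA, and TNFRSF8, which encodes CD30, stood between 4.97 and 12.4. ALK was at 0.0966 to 0.137 and IL2RG, the common cytokine receptor chain, at 0.0271 to 0.135. An RPKM averages over all counted bases of a gene, so transcription confined to a part of ALK was not assessed. B cell, myeloid and NK cell markers reached 0.5 for 2 to 3 of 10 genes. None of 10 stromal and epithelial markers did, and their summed RPKM was 0.305 on CD30L+ CHO cells against 0.528 on CHO cells, and 0.597 with SM-164 and 0.598 with DMSO. Of these 10, 1 to 4 had no read in a library, and in the preceding list 3 to 4. The part of non-lymphoma cells in the results below was not tested, and no source used here says how hamster reads were handled.

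Levels are in RPKM, the reads of a gene over exons and introns together, divided by its counted bases and by the library total. MYC was the most transcribed member in 3 of the 4 libraries. It stood at 4.90 RPKM with SM-164 and 6.67 with DMSO, and 2.92 on CD30L+ CHO cells against 6.74 on CHO cells. Both treated libraries lay below both controls. On CD30L+ CHO cells MXD1 was first, at 5.02, and MYC second. MXD1 encodes a repressor that appears when cells leave the cycle and differentiate.

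MXD1 had an RPKM of 1.21 with SM-164 and 1.10 with DMSO, and 5.02 on CD30L+ CHO cells against 3.24 on CHO cells. Both co-culture libraries were above both drug libraries. MXD3, a repressor found in cycling cells, ran the other way, with 2.82 with SM-164 and 2.91 with DMSO, and 1.14 on CD30L+ CHO cells against 1.99 on CHO cells. MAX itself was at 0.661 with SM-164 and 0.680 with DMSO, and at 1.15 on CD30L+ CHO cells against 1.26 on CHO cells. MLX stood at 1.20 with SM-164 and 1.402 with DMSO, and at 1.04 on CD30L+ CHO cells against 1.69 on CHO cells. For MLX the levels of the co-culture libraries lay on both sides of those of the drug libraries.

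The other 4 members were transcribed weakly. MXI1, an MXD family repressor, was at 0.495 with SM-164 and 0.523 with DMSO, and at 0.418 on CD30L+ CHO cells against 0.665 on CHO cells. MNT, a broadly present repressor that pairs with MAX or MLX, was at 0.327 with SM-164 and 0.397 with DMSO, and at 0.127 on CD30L+ CHO cells against 0.270 on CHO cells. MXD4 was at 0.147 with SM-164 and 0.211 with DMSO, and at 0.0711 on CD30L+ CHO cells against 0.235 on CHO cells. MGA, the largest protein of the network and a scaffold of a Polycomb complex, lay lowest, between 0.00627 and 0.0129, from 18 to 65 reads over 109438 counted bases.

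**Figure D1:**
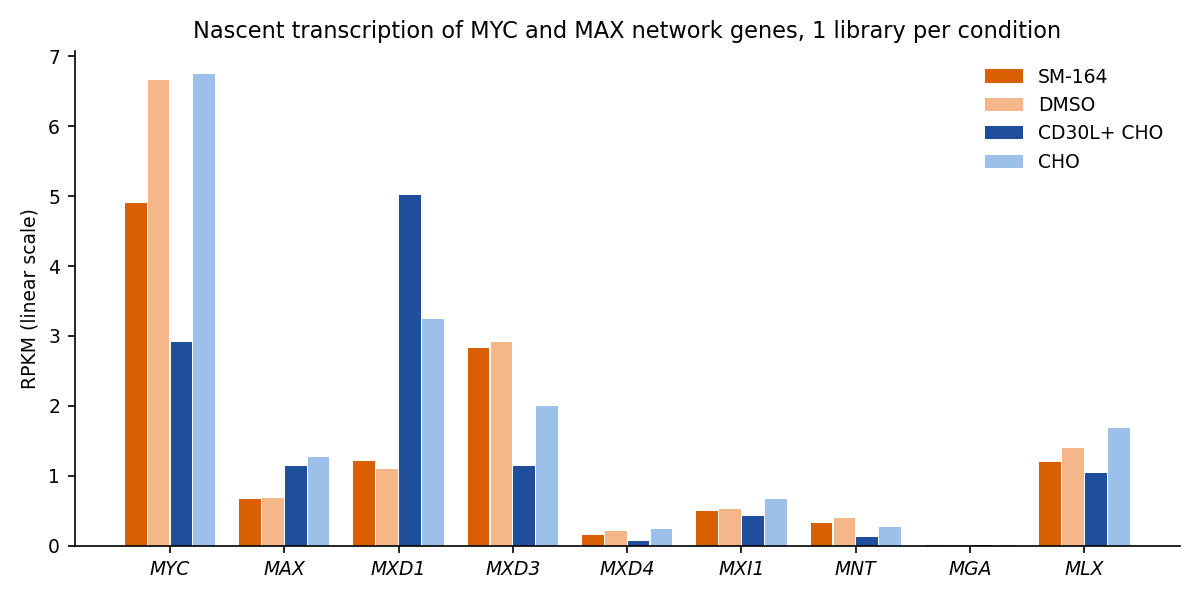
RPKM of the 9 members (linear y axis from 0) in the 4 libraries, 1 bar per library, with no error bars because each condition has 1 library. MYC is the highest bar with SM-164, DMSO and CHO cells, and MXD1, at 5.02, is the highest on CD30L+ CHO cells, while MGA is too low to show.

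With SM-164 the order of levels was MYC, MXD3, MXD1, MLX, MAX, MXI1, MNT, MXD4 and MGA. MXD1, at an interval from 1.14 to 1.30, and MLX, from 1.04 to 1.39, did not differ beyond counting error there. With DMSO the order was the same apart from MLX, which stood above MXD1 with no overlap of their intervals. On CD30L+ CHO cells the order was MXD1, MYC, MAX, MXD3, MLX, MXI1, MNT, MXD4 and MGA. MAX, with an interval from 1.12 to 1.18, MXD3, from 1.02 to 1.26, and MLX, from 0.927 to 1.17, overlapped there. On CHO cells the order was MYC, MXD1, MXD3, MLX, MAX, MXI1, MNT, MXD4 and MGA, and the intervals of MXD3 (1.839 to 2.156) and MLX (1.537 to 1.843) overlapped narrowly.

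In hg19, with 1-based starts, MAX lies on chromosome 14 from 65472892 to 65569227 on the minus strand, and 55007 of its bases are also covered by FNTB on the plus strand. MXD1 lies on chromosome 2 from 70142173 to 70170076, MXI1 on chromosome 10 from 111967363 to 112047123 and MGA on chromosome 15 from 41952610 to 42062141, all on the plus strand. MXD3 lies on chromosome 5 from 176732501 to 176739292, MXD4 on chromosome 4 from 2249160 to 2263739 and MNT on chromosome 17 from 2287354 to 2304258, all on the minus strand. MLX lies on chromosome 17 from 40719078 to 40725221 on the plus strand. Opposite-strand genes overlap MXD3 by 1450 bases (PRELID1) and MLX by 893 bases (PSMC3IP), so counts at those ends depend on strand. Per the labels' protocols, strand-specific reads were made for certain samples, without naming them. Across the 4 libraries, sense gene features held 78.4% to 79.6% of the library total and antisense features 3.31% to 3.57%. The counts of all 4 were thus separated by strand.

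Members of the network bind the E-box CACGTG, so the 250 bases before the annotated starts were searched for it. RefSeq windows on GRCh38.p14 were at hand for 8 members, with 13 starts in all. CACGTG, which reads the same on both strands, was found in 3 windows, those of MXD4, MNT and MLX, and in 6.34% of all 35116 windows. The looser form CANNTG, which contains CACGTG, was in 7 of the 13 windows and in 61.8% of all. The NF-kB consensus, searched on both strands, was in 0 of the 13 and in 9.96% of all. A missing match says only that these letters are not in this window. The windows of MXD4, MNT and MLX are shown because they hold the E-box in members that were lower on CD30L+ CHO cells, and that of MXD1 because it was the member higher there. MXD3 and MXI1 had lower values there too, and their windows hold no CACGTG. MAX was also lower, but its windows may not lie before the start of the counted gene, so their lack of CACGTG says nothing about it. The windows shown cover chr4:2262110-2262359 (minus strand) for MXD4, chr17:2401061-2401310 (minus) for MNT, chr17:42566850-42567099 (plus) for MLX and chr2:69914859-69915108 (plus) for MXD1. Capitals mark CACGTG in the first 3 and CANNTG in MXD1, and each sequence ends at the base before the start.
MXD4: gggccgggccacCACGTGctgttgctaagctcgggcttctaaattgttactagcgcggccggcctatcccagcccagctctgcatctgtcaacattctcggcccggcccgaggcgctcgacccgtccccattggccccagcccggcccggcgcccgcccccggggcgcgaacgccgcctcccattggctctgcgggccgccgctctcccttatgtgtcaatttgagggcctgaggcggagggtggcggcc
MNT: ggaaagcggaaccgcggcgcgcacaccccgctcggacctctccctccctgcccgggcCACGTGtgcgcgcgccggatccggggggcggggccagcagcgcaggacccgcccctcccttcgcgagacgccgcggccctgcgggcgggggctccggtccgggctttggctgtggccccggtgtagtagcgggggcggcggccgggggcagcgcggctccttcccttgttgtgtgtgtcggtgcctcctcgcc
MLX: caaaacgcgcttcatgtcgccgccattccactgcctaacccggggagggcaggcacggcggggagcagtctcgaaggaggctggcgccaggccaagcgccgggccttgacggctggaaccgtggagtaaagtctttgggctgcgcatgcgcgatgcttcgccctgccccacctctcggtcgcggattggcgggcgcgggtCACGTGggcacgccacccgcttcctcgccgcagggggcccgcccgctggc
MXD1: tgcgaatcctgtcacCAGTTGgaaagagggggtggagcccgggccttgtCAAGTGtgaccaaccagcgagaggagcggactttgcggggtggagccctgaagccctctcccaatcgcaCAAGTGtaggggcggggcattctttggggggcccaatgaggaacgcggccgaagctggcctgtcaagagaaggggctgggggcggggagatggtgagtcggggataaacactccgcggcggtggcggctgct

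The E-box lies 238 bases before the start of MXD4, 193 before that of MNT and 50 before that of MLX, counted to its first base. The window of MXD1 has 3 CANNTG and no CACGTG. A match is a description of the sequence, and no binding was measured.

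The first comparison asked what 3 h with SM-164 did to the network. The members were close to their DMSO levels, and MYC had the largest difference among those tested. MYC lies on chromosome 8 of hg19 from 128748315 to 128753680 on the plus strand and is the shortest member, with 5366 counted bases. MYC was at 0.735 of its DMSO level (0.667 to 0.809), from 689 reads with SM-164 and 1110 with DMSO, a log2 ratio of -0.43. Here and below the log2 ratio is that of RPKM + 0.25, which makes differences of weakly transcribed genes look smaller. Genes entered a comparison if they had 300 counted bases or more and averaged 0.5 RPKM or more across its pair of libraries, and those past 2-fold were called. By that rule 6 of the 9 members were tested (MYC, MAX, MXD1, MXD3, MXI1 and MLX) and 0 were called, against 0.254% of all 7881 genes tested, 0.19% higher and 0.0634% lower. At 1.5-fold 0 members were called as well, where 0.787% of all genes were higher and 1.1% lower.

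MXD1 was 1.10-fold higher with SM-164 (1.003 to 1.21). MAX was at 0.972 (0.911 to 1.04), MXD3 at 0.971 (0.861 to 1.09), MXI1 at 0.946 (0.871 to 1.03) and MLX at 0.860 (0.711 to 1.04) of the DMSO level. For these 4 the interval includes 1, which does not show that they were equal. Among the members that were not tested, MXD4 was at 0.698 (0.492 to 0.981), MNT at 0.825 (0.663 to 1.02) and MGA at 0.852 (0.438 to 1.63). The signs of MAX and MXD3 turned positive under other scalings, with values of at most 0.11. The median log2 ratio was -0.05 over the 6 tested members and -0.04 over all genes tested. MYC is a short gene, and short genes were lower with SM-164: the median over the 788 genes of its length decile, 3391 to 6789 counted bases, was -0.18. MYC lay below 700 of them and above 87, and its log2 ratio was -0.24 once the length trend was subtracted.

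**Figure D2:**
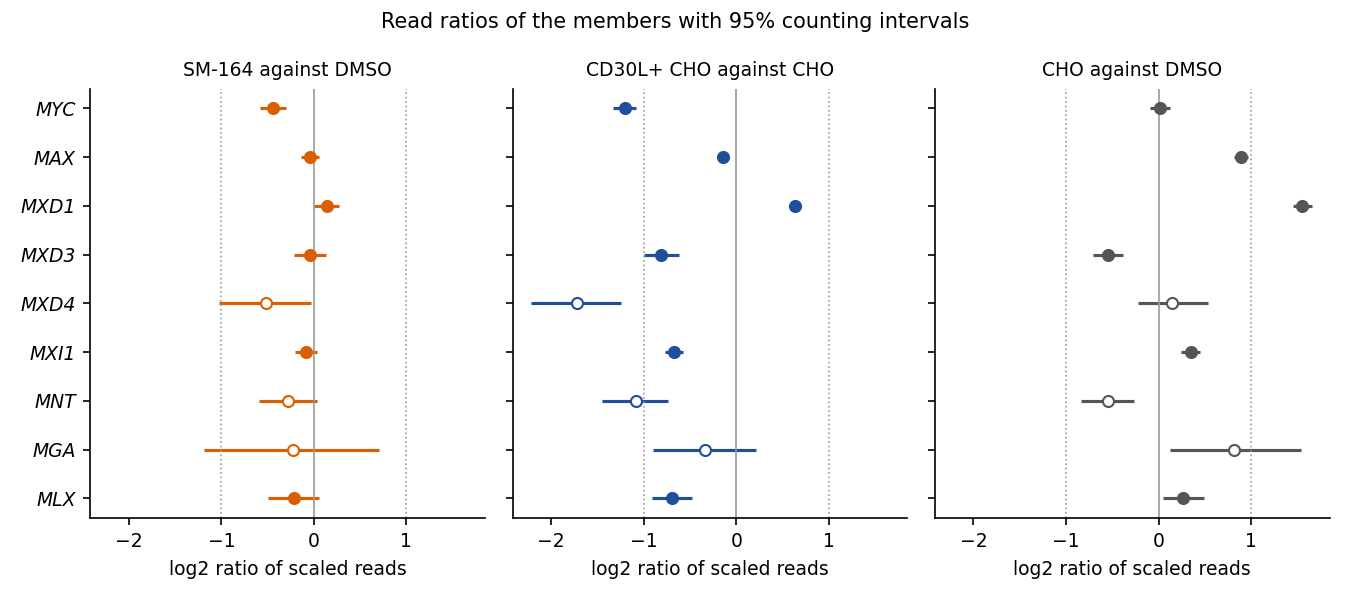
Ratio of library-scaled reads on a log2 axis for the 9 members, 1 panel per comparison, with bars for the 95% counting interval and dotted lines at 2-fold. Filled points passed the filter on low values and open points (MXD4, MNT and MGA) did not. In the middle panel 8 of the 9 members lie below 0, with MXD1 alone above it. In that comparison 72.0% of all genes tested had a log2 ratio below 0. In the left panel MYC lies farthest from 0 among the filled points.

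The second comparison asked what CD30L added to contact with CHO cells. MYC was lower and MXD1 higher on CD30L+ CHO cells. MYC was at 0.433 of the value in the CHO library (0.397 to 0.474), from 714 reads on CD30L+ CHO cells against 1660 on CHO cells, while MXD1 was 1.55-fold higher (1.49 to 1.61), from 6375 reads on CD30L+ CHO cells against 4147 on CHO cells. The other 7 members had lower values on CD30L+ CHO cells, as did 72.0% of all genes tested. For MGA the difference was within counting error. Of 6 tested, MYC was the 1 called, as lower, with a log2 ratio of -1.14, against 0.731% of 7661 genes called lower and 1.71% called in either direction. That call was lost with a pseudocount of 1 (-0.98), under TMM scaling (-0.95) and with the length trend subtracted (-0.93), while the sign held.

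Of the other MXD family repressors, none was called at 2-fold, and MXD4 was not tested. MXD3 was at 0.571 of the value in the CHO library (0.4997 to 0.652), and MXI1 at 0.628 (0.589 to 0.670). MLX was at 0.619 (0.534 to 0.718). MAX, the shared partner, was at 0.907 (0.873 to 0.943), a log2 ratio of -0.12 that was 0.05 under TMM scaling. MXD4 was at 0.304 (0.214 to 0.423), from 46.9 reads on CD30L+ CHO cells against 156 on CHO cells, and MNT at 0.470 (0.366 to 0.6005), from 97.8 and 210 reads. Both were below the expression minimum, so neither could be called. MGA was at 0.791 (0.537 to 1.16). At a 1.5-fold threshold, MXD1 was called higher and MXD3 and MYC lower, where 2.62% of all genes were called higher and 4.99% lower.

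The median log2 ratio of the 6 tested members was -0.52, against -0.12 over all genes tested. Of the 6 tested members 3 are short, and short genes were lower on CD30L+ CHO cells. In the length decile of MYC, MXD3 and MLX (3966 to 8032 counted bases, 766 genes) the median was -0.21. MYC lay below 763 genes of that decile and above 2, MXD3 below 722 and MLX below 683. MXD1, with 27904 counted bases, lay above 749 of the 765 genes of its decile, whose median was -0.10. With the length trend subtracted, the log2 ratios were 0.71 for MXD1, -0.93 for MYC, -0.48 for MXD3, -0.39 for MXI1, -0.37 for MLX and -0.06 for MAX.

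**Figure D3:**
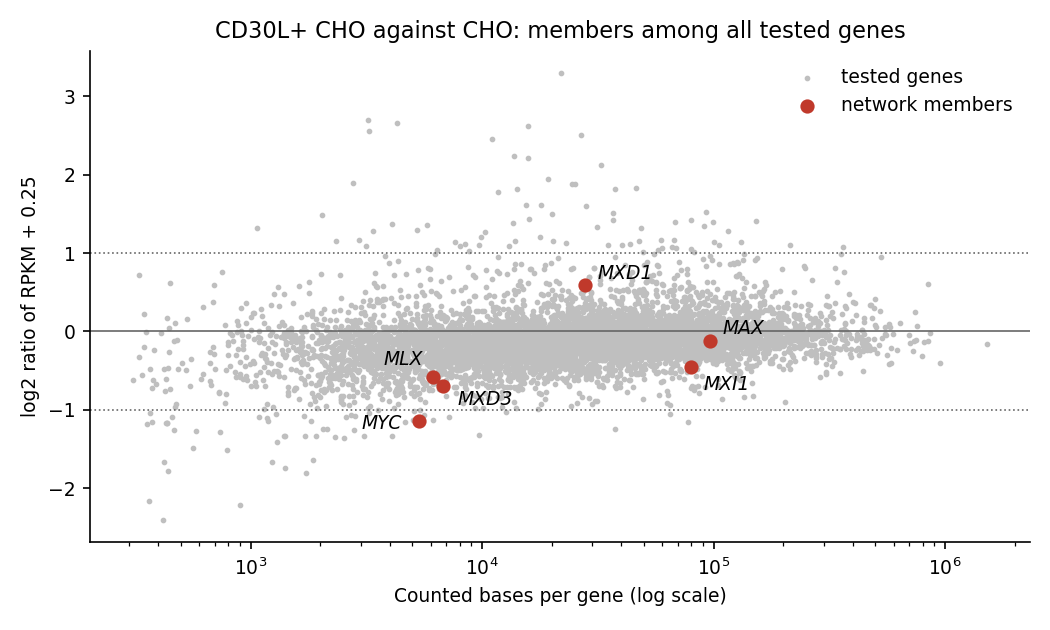
Log2 ratio of RPKM + 0.25, CD30L+ CHO against CHO cells, over counted bases per gene (log axis), with 7661 tested genes in grey and the 6 tested members in red; dotted lines mark 2-fold. MYC, at -1.14, lies below 763 of the 766 genes of its length decile, and MXD1, at 0.59, above 749 of the 765 genes of its own.

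Ratios between members within a library do not depend on the library total. MYC divided by MXD1 gave 0.582 on CD30L+ CHO cells against 2.08 on CHO cells, and 4.04 with SM-164 and 6.05 with DMSO. On CD30L+ CHO cells it was thus 0.280 of the value on CHO cells (0.254 to 0.308), and with SM-164 0.668 of the value with DMSO (0.585 to 0.762). The RPKM of MYC over that of MAX was 0.478 of its value on CHO cells (0.434 to 0.526) on CD30L+ CHO cells, and 0.756 of the DMSO value (0.674 to 0.848) with SM-164. MXD1 divided by MXD3 gave 4.41 on CD30L+ CHO cells against 1.63 on CHO cells, which is 2.71 times as much (2.37 to 3.11). With SM-164 and DMSO it was 0.430 and 0.379, or 1.13 times as much with SM-164 (0.976 to 1.31). These ratios also differed between the controls. MXD1 over MXD3 was 4.29 times as much on CHO cells as with DMSO (3.76 to 4.89). On CHO cells MYC over MXD1 was 0.344 of the DMSO value (0.3105 to 0.382), and MYC over MAX 0.544 (0.496 to 0.596).

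As a share of the summed RPKM of the 9 members, MYC made up 41.6% with SM-164 and 48.0% with DMSO, and 24.6% on CD30L+ CHO cells against 41.9% on CHO cells. MXD1 made up 10.3% with SM-164 and 7.94% with DMSO, and 42.2% on CD30L+ CHO cells against 20.1% on CHO cells. MXD3 took 24.0% with SM-164 and 20.9% with DMSO, and 9.57% on CD30L+ CHO cells against 12.4% on CHO cells. The sum itself was 11.8 with SM-164 and 13.9 with DMSO, and 11.9 on CD30L+ CHO cells against 16.1 on CHO cells. Within the 4 repressors of the MXD family (MXD1, MXD3, MXD4 and MXI1), MXD1 made up 75.5% on CD30L+ CHO cells against 52.8% on CHO cells, and 26.0% with SM-164 and 23.2% with DMSO.

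**Figure D4:**
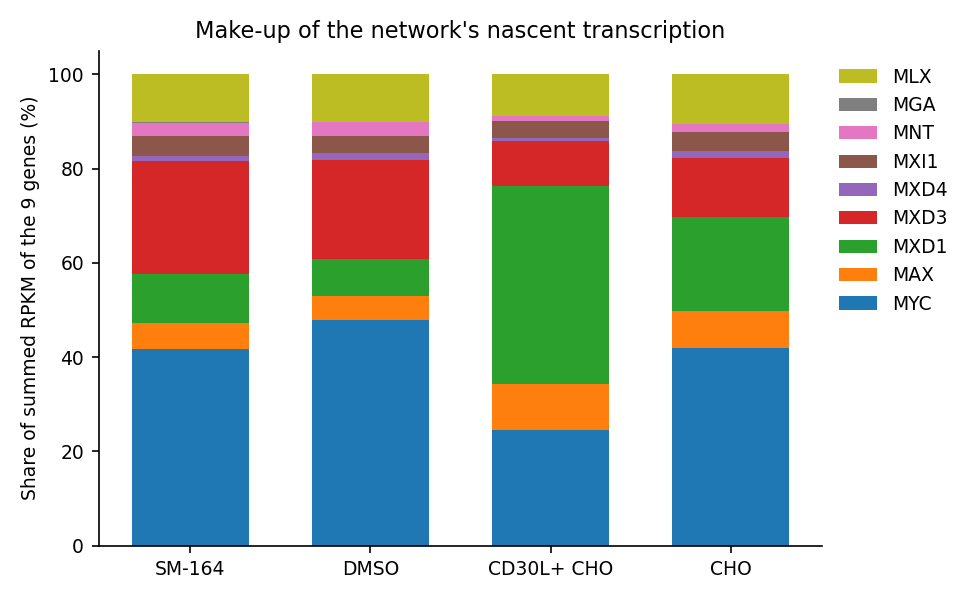
Share of the summed RPKM of the 9 members (%, y axis from 0) taken by each member, 1 stacked bar per library. The share of MXD1 is 42.2% on CD30L+ CHO cells against 20.1% on CHO cells, the share of MYC is 24.6% on CD30L+ CHO cells against 41.9% on CHO cells, while the SM-164 and DMSO bars are close to each other.

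The 2 treatments share no library, so their folds can be set against each other. The fold of MYC on CD30L+ CHO cells was 0.590 of its fold with SM-164 (0.518 to 0.671), and that of MXD3 0.588 (0.493 to 0.701). The fold of MXD1 was 1.41 times as large (1.27 to 1.55). For MXI1 the value was 0.664 (0.598 to 0.737), for MLX 0.720 (0.569 to 0.912), for MNT 0.570 (0.414 to 0.785) and for MXD4 0.435 (0.274 to 0.692). For MAX, at 0.933 (0.866 to 1.01), and MGA, at 0.928 (0.457 to 1.88), the interval includes 1. These intervals leave out the spread between cultures, which was not measured. The values also rest on scaling by library totals. TMM scaling moved the median log2 ratio of all genes by 0.17 with CD30L and by 0.04 with SM-164. Under it these ratios of folds would be higher, and their intervals were not recomputed.

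The controls of the 2 experiments differ in setting, and CHO against DMSO shows how far the experiments lie apart without CD30L. MXD1 was 2.94-fold higher on CHO cells than with DMSO (2.74 to 3.15), a log2 ratio of 1.37. It was the 1 of 6 tested members called, against 0.879% of 8081 genes called higher and 5.4% called in either direction. MXD1 was called under every alternative tried for this comparison, and 16 genes had a higher ratio. At 1.5-fold MAX was also called higher, where 7.07% of all genes were higher and 10.7% lower. MAX was 1.86-fold higher (1.77 to 1.96), MXI1 1.27-fold (1.19 to 1.36) and MLX 1.20-fold (1.03 to 1.403). MYC did not differ beyond counting error (1.01-fold, 0.937 to 1.09), and its log2 ratio of 0.02 turned to -0.09 under TMM scaling. MXD3 was at 0.685 (0.612 to 0.767), and MNT, below the expression minimum, at 0.683 (0.561 to 0.831). Also below it, MXD4 was at 1.11 (0.855 to 1.45) and MGA at 1.76 (1.09 to 2.91), from 65 reads on CHO cells and 25 with DMSO. Markers of lymphoma and T cells were lower on CHO cells as well, where the log2 ratios of 8 of 8 tested were below 0, with a median of -0.81, and PRF1, BATF3 and GZMB were called lower. Over all genes tested 43.8% were below 0 and 4.52% called lower. Their summed RPKM was 40.6 on CHO cells and 71.7 with DMSO, and its part in the members' values was not tested. In CD30L+ CHO against CHO the sum was 60.0 with CD30L and 40.6 without it, with BATF3 and SERPINA1 called higher among 8 tested, where 0.979% of all genes were, and in SM-164 against DMSO it was 83.5 with SM-164 and 71.7 with DMSO, with 0 called. This comparison of controls shares the CHO library with that of CD30L, so the values of both are tied through it.

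The paralogs of MYC and one MLX partner had hardly any reads. MYCN had 1 read in the CHO library and 0 in the other libraries, and MYCL1 had 1 read on CD30L+ CHO cells, 1 on CHO cells and 0 with SM-164 and DMSO. Where no read was seen, up to 3 reads remain possible, or in library-scaled units an RPM of 0.114 with SM-164, 0.0967 with DMSO and 0.0659 on CD30L+ CHO cells. MLXIPL, which encodes the glucose sensor ChREBP, had 1 or 2 reads per library. MLXIP, which encodes the MLX partner MondoA, was at an RPKM of 0.662 with SM-164 and 0.582 with DMSO, and 0.375 on CD30L+ CHO cells against 0.542 on CHO cells. Its ratio was 1.14 (1.07 to 1.21) for SM-164 and 0.691 (0.652 to 0.733) for CD30L, where it was below the expression minimum. PVT1, the long noncoding RNA gene downstream of MYC on the same strand, was 1.19-fold higher with SM-164 (1.16 to 1.21) and at 0.678 of its CHO level on CD30L+ CHO cells (0.669 to 0.688). PVT1 and MYC thus had ratios on opposite sides of 1 with SM-164 and on the same side with CD30L.

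Of 10 genes from the region around MYC, whose distances to it are not given here, 8 had an entry and 5 were tested. With SM-164 and with CD30L 0 were called. TRIB1, a pseudokinase gene upstream of MYC, had the highest ratio in both, 1.797-fold (1.51 to 2.14) with SM-164 and 1.48-fold (1.36 to 1.61) on CD30L+ CHO cells. The lowest were ASAP1 with SM-164, at 1.02-fold (1.002 to 1.04), and PVT1 with CD30L. Between the controls TRIB1 was called, 2.80-fold higher on CHO cells (2.42 to 3.26). Of these 5 genes, 5 had a log2 ratio above 0 with SM-164, where 63.3% of all genes were below 0, 3 did with CD30L, where 72.0% were below 0, and 2 did between the controls, where 43.8% were below 0. With a pseudocount of 1 TRIB1 was not called between the controls. The medians were 0.07 with SM-164, 0.10 with CD30L (-0.05 without an RPKM filter) and -0.32 between the controls.

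Among 36 genes that MYC is known to induce, 31 were tested with SM-164 and 0 were called. Their median log2 ratio was -0.11, between 0.07 for C6orf108, a nucleotide hydrolase gene, and -0.59 for RRS1, a ribosome assembly gene. On CD30L+ CHO cells 29 were tested and again 0 were called, but all 29 had log2 ratios below 0, where 72.0% of all genes tested did. Their median was -0.35, from -0.04 for GNL3, the nucleostemin gene, down to -0.79 for NOP56, a box C/D snoRNP gene, which was at 0.567 of its CHO level (0.529 to 0.607). At 1.5-fold 6 of the 29 were lower, where 4.99% of all genes were. The median was -0.16 under TMM scaling and with the length trend subtracted. The count of 29 below 0 holds for scaling by library totals. GNL3, at -0.04, and EIF4E and NOP58, both at -0.11, lay above the median of all genes, -0.12. Setting that median to 0 thus puts them above 0. Between the controls the median was -0.39 over 31 tested, with SHMT2 (0.3595, 0.323 to 0.3998), RRS1 (0.330, 0.240 to 0.451) and TFRC (0.480, 0.466 to 0.494) called lower on CHO cells, where 4.52% of all genes were. Across the alternatives at 2-fold 1 to 5 of the 31 were called lower. SHMT2 encodes a mitochondrial enzyme of serine metabolism and TFRC the transferrin receptor. MYC itself did not differ beyond counting error between these libraries.

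Among 12 genes that MYC is known to repress, 10 were tested with CD30L, with a median of 0.08 that was -0.02 without an RPKM filter, and 3 were called higher, where 0.979% of all genes were. BTG2, an antiproliferative gene, was 2.75-fold higher (2.46 to 3.09), FTH1, the ferritin heavy chain gene, 2.45-fold (2.35 to 2.56) and GADD45A, a growth arrest gene, 2.18-fold (1.999 to 2.38). With a pseudocount of 1, 2 were called. Of the 10 tested, 6 had log2 ratios above 0 and 4 below it, where 72.0% of all genes were below 0. The lowest was TXNIP, at -0.97. FTH1 has many processed copies, so its count is uncertain. With SM-164 0 of 9 tested were called, with a median of -0.07 that was 0.10 with the length trend subtracted, where 1 was called higher. BTG2 was highest with 2.11-fold (1.65 to 2.72, log2 ratio 0.88) and TXNIP lowest with 0.784 (0.693 to 0.887). Between the controls the median was 0.22, with TXNIP (2.56-fold, 2.35 to 2.80) and BTG2 (2.78-fold, 2.24 to 3.49) called higher and GADD45B (0.419, 0.346 to 0.507) called lower on CHO cells. Over all genes 0.879% were called higher and 4.52% lower. With a pseudocount of 1 the calls were 1 higher and 0 lower, and with the length trend subtracted 2 higher and 0 lower.

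TXNIP, a regulator of glucose uptake, is also a target of MLX with MondoA. Its RPKM was 6.47 on CD30L+ CHO cells against 12.9 on CHO cells, and 3.96 with SM-164 and 5.04 with DMSO. On CD30L+ CHO cells it was at 0.501 of the CHO level (0.468 to 0.537), a log2 ratio of -0.97. Of the 4 tested MLX and MondoA targets, 0 were called with SM-164 (median 0.16) or CD30L (0.04, and -0.09 without an RPKM filter). PFKFB3, a glycolytic regulator, was highest with SM-164, at 1.27-fold (1.24 to 1.30), and KLF10, a zinc finger gene, with CD30L, at 1.14-fold (1.07 to 1.22). Between the controls the median was -0.25 and TXNIP was the 1 called.

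Of 20 genes for MYC cofactors and MYC turnover, 20 were tested with SM-164 (median -0.02) and 16 with CD30L (median -0.14), and 0 were called in both. Under TMM scaling both medians were above 0, at 0.02 for SM-164 and 0.03 for CD30L. With CD30L 1 of the 16 was called higher under TMM scaling and once all ratios were centred on their median. HUWE1, a ubiquitin ligase that acts on MYC, was highest in both, 1.41-fold (1.39 to 1.44) with SM-164 and 1.96-fold (1.94 to 1.99) on CD30L+ CHO cells. SKP2, another ubiquitin ligase subunit, was lowest with CD30L, at 0.570 (0.535 to 0.606), and STUB1 lowest with SM-164, at 0.712 (0.541 to 0.932). Between the controls 1 of 19 was called, STUB1, a ubiquitin ligase gene, at 0.379 (0.286 to 0.4995), where 4.52% of all genes were called lower, and the median was -0.08. With a pseudocount of 1 or the length trend subtracted 0 were called.

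The SIN3 and HDAC corepressors, which MXD proteins recruit, were tested in full, 10 of 10 in each comparison, and 0 were called in any. Their medians were -0.05 with SM-164, -0.08 with CD30L and -0.06 between the controls, and the first was 0.01 with the length trend subtracted while the second was positive under 3 alternatives. SIN3A was highest in both treatments, with 1.09-fold (1.05 to 1.13) for SM-164 and 1.18-fold (1.14 to 1.21) for CD30L, and HDAC1 lowest, at 0.889 for SM-164 (0.831 to 0.953) and 0.788 for CD30L (0.747 to 0.831). Between the controls SUDS3 was highest, at 1.32-fold (1.24 to 1.401), and RBBP4 lowest, at 0.786 (0.760 to 0.814). Of 13 Polycomb PRC1.6 partners of MGA, 10 were tested with SM-164, 8 with CD30L and 10 between the controls, and 0 were called. Their medians were -0.06, -0.15 and 0.13 in that order. The second was 0.03 under TMM scaling and the third -0.04 with the length trend subtracted, where 1 of the 10 was called higher. RYBP, a PRC1 subunit gene, was highest in all 3, with 1.23-fold for SM-164 (1.19 to 1.27), 1.5-fold for CD30L (1.47 to 1.53) and 1.81-fold between the controls (1.76 to 1.86). TFDP1, an E2F partner, was lowest with SM-164, at 0.849 (0.790 to 0.912), and between the controls, at 0.596 (0.556 to 0.638), and E2F6 was lowest with CD30L, at 0.783 (0.725 to 0.847). The lists share members: TXNIP, WDR5, HDAC1 and HDAC2 each stand in 2.

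**Figure D5:**
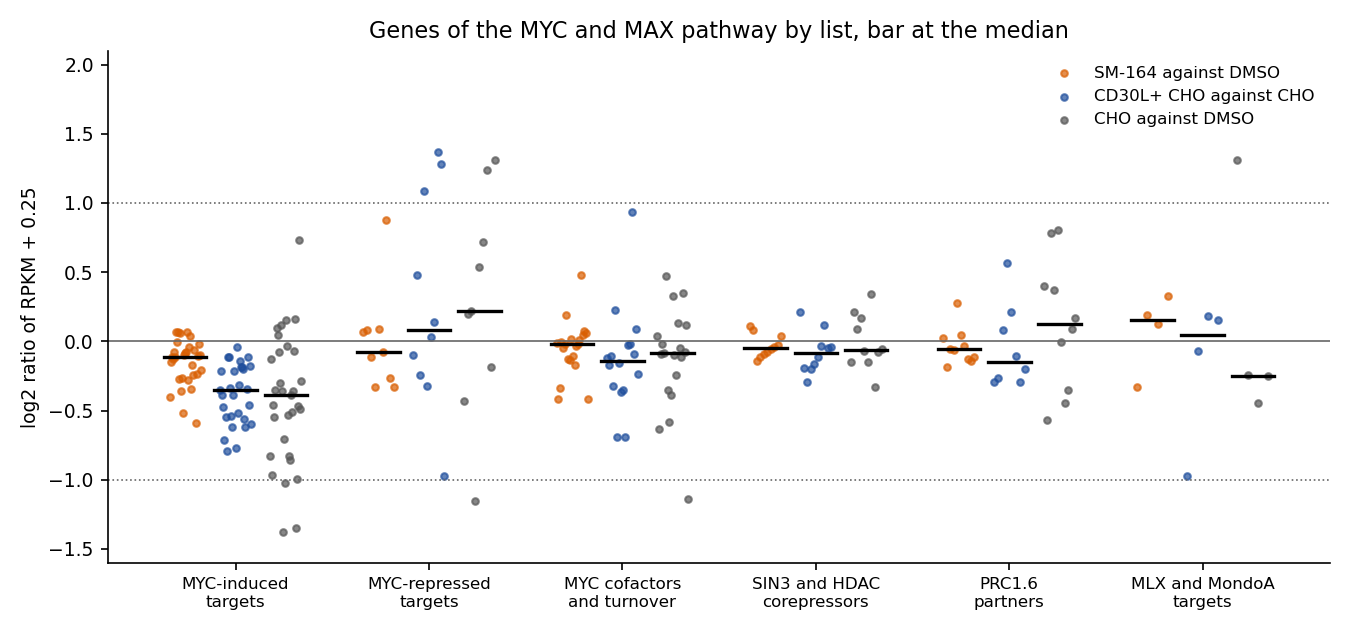
Log2 ratio of RPKM + 0.25 (y axis) of each tested gene in 6 pathway lists, with SM-164 against DMSO, CD30L+ CHO against CHO and CHO against DMSO side by side, a black bar at the median and dotted lines at 2-fold. With scaling by library totals all 29 MYC-induced targets lie below 0 on CD30L+ CHO cells, with a median of -0.35, and their median is -0.39 between the controls.

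Likeness to a member was measured as the largest absolute difference over the 3 log2 ratios, among 7203 genes tested in all 3 comparisons of these 4 libraries. Nearest to MYC were DMBX1 (0.05), HTRA3 (0.10), RNASEH2C (0.21), MKNK2 (0.24) and LPCAT4 (0.27). DMBX1, a homeobox gene, stood at an RPKM of 1.79 with SM-164 and 2.50 with DMSO, and 1.03 on CD30L+ CHO cells against 2.48 on CHO cells. HTRA3, a serine protease gene, had 2.08 with SM-164 and 2.79 with DMSO, and 0.965 on CD30L+ CHO cells against 2.61 on CHO cells. Nearest to MXD1 were C20orf111 (0.21), HMGCS1 (0.24), a cholesterol synthesis gene, and RAB12 (0.26). HMGCS1 had an RPKM of 7.72 with SM-164 and 8.45 with DMSO, and 26.6 on CD30L+ CHO cells against 20.8 on CHO cells.

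Reads on the opposite strand of the members were counted as well. At MYC there were 0 to 2 antisense reads per library beside 689 to 1660 sense reads. The antisense share at MXD1 was 1.70% (1.396% to 2.04%) on CD30L+ CHO cells against 3.04% (2.55% to 3.60%) on CHO cells, and 7.50% (5.91% to 9.35%) with SM-164 and 9.48% (7.78% to 11.4%) with DMSO. For the antisense reads of MXD1 themselves the interval of the ratio includes 1, at 0.853 on CD30L+ CHO cells relative to CHO cells (0.655 to 1.11) and 0.852 with SM-164 relative to DMSO (0.621 to 1.17). At MXI1 the antisense share was 28.9% (27.0% to 30.9%) on CD30L+ CHO cells against 18.6% (17.2% to 20.04%) on CHO cells, and 5.82% (4.51% to 7.38%) with SM-164 and 6.23% (5.01% to 7.63%) with DMSO. With CD30L the antisense reads of MXI1 were at 1.12 (0.996 to 1.26) while its sense reads were at 0.628, and with SM-164 they were at 0.881 (0.627 to 1.23). The share at MXD3 was 18.5% (15.0% to 22.5%) on CD30L+ CHO cells against 11.2% (8.92% to 13.7%) on CHO cells, and 9.53% (7.22% to 12.3%) with SM-164 and 7.54% (5.65% to 9.82%) with DMSO. Its antisense reads were at 1.03 on CD30L+ CHO cells relative to CHO cells (0.747 to 1.43), while its sense reads were at 0.571. The antisense reads of MXD3 were counted over 5342 bases and its sense reads over 6792. The part of PRELID1, which lies on that strand, in these antisense reads was not tested.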

How the data were processed

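Nascent RNA was measured by Bru-seq in 4 libraries of Karpas 299 cells, 1 per condition. The submitters' processing notes name hg19 as the build and TopHat 1.4.1, Bowtie 0.12.8, bedtools 2.16.2 and CASAVA 1.8.2 as tools. Which gene models were counted is stated nowhere in those notes or labels. The authors deposited an estimated count per feature over exons and introns, a signal that equals the estimated count per counted base, and the RPKM. The library total behind each RPKM column was computed as the median ratio of signal to RPKM over features. Of 44807 features, 22984 were sense genes; a repeated symbol kept the entry with most counted bases, which dropped 186.

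The log2 ratio was that of RPKM + 0.25 in both libraries. The filter was 300 counted bases and 0.5 RPKM on average over the pair, and the threshold 2-fold. Folds in the text are ratios of rounded estimated counts over the library totals, with exact conditional (Clopper-Pearson) 95% intervals; levels have exact Poisson intervals, and ratios of ratios normal intervals on the log scale. Shares have Clopper-Pearson intervals. Without molecular identifiers, reads copied by PCR do not count separate molecules, so intervals and floors cover counting error only. The comparisons were SM-164 against DMSO, CD30L+ CHO against CHO, and CHO against DMSO.

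The members, the 12 lists and the rules were chosen with earlier results of these data known. Named were all members, the MYC paralogs, the MLX partners and PVT1, up to 4 called genes per list and comparison (otherwise the highest and lowest), and the genes most like MYC (5) and MXD1 (3). FNTB, PRELID1, PSMC3IP, SMNDC1, EIF4E, NOP58, single marker genes and the neighbours of MGA were named after their values were seen. The alternatives were a pseudocount of 0.1 or 1, no RPKM filter or one at 1, 1000 counted bases, 1.5-fold, a counting interval that excludes 1, a median of 0, TMM scaling with edgeR 4.0.16 in R 4.3.3, and subtraction of the running median over 301 genes ordered by length. Promoter windows came from RefSeq (GRCh38.p14). The computations used Python 3.11.15 with scipy 1.17.1, matplotlib 3.10.9, pandas 2.3.3 and numpy 2.4.6.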

Additional observations from a re-analysis of the deposited data

Results flagged for a closer look

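Antisense reads at MXI1 were 4.37-fold higher on CHO cells than with DMSO (3.48 to 5.55), from 556 reads on CHO cells and 86 with DMSO, while the sense reads were 1.27-fold higher. They stand out because the opposite strand is outside the main measurement and exceeded its level in the DMSO library. SMNDC1, a gene on that strand, ends 5674 bases downstream of MXI1 and was 1.19-fold higher on CHO cells (1.10 to 1.30); its part in the MXI1 value was not tested.

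Antisense reads at MAX were 1.95-fold higher on CHO cells than with DMSO (1.12 to 3.55) for the same reason, from 52.4 reads on CHO cells and 18.1 with DMSO. The sense reads of MAX were 1.86-fold higher in the same comparison. The antisense reads were counted over 35460 bases and the sense reads over 96336. FNTB, which overlaps MAX on the other strand, was at 0.629 RPKM on CHO cells and 0.472 with DMSO. Its part in the MAX antisense value was not tested.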

How the results depend on the processing

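The count of members called at 2-fold was 1 in CD30L+ CHO against CHO and was 0 with a pseudocount of 1, under TMM scaling and with the length trend subtracted, and 3 at 1.5-fold. The MYC log2 ratio of -1.14 was -0.98, -0.95 and -0.93 under the first 3 of these settings. The length subtraction also gave -0.24 for MYC with SM-164 and 0.17 for MYC between the controls. In CHO against DMSO the count of 1 was 2 at 1.5-fold, with MAX added to MXD1. In SM-164 against DMSO it was 0 under every alternative tried. Of 235 other values of the members, 214 moved by less than their counting error and 21 moved by more. Many of the 214 could not move, because a changed filter or threshold leaves a log2 ratio as it was. A reversal was counted only for members called with the main settings, here MXD1 between the controls, and 0 were found. Of 297 list medians, 280 stayed within a range set by the ranks of the list's own genes and 17 moved past it. For the smaller lists this range ran from the lowest to the highest gene, which a median can hardly leave. A changed fold threshold or counting interval cannot move a median at all. TMM scaling turned the MYC ratio between the controls, 0.02, to -0.09, and setting the median of all genes to 0 turned it to -0.04. In CD30L+ CHO against CHO, TMM scaling moved the median of all genes by 0.17, and the calls over all genes, 75 higher and 56 lower, were 112 and 32 under it, 96 and 24 with the length trend subtracted, 43 and 15 with a pseudocount of 1, 85 and 97 with 0.1, and 71 and 31 at a mean RPKM of 1. In SM-164 against DMSO they were 15 and 5, but 20 and 0 with the length trend subtracted, 17 and 9 with a pseudocount of 0.1, 8 and 3 with 1, 15 and 9 without an RPKM filter and 15 and 1 at 1000 counted bases. In CHO against DMSO they were 71 and 365, but 137 and 232 with the length trend subtracted, 111 and 418 with a pseudocount of 0.1, 18 and 209 with 1, 104 and 407 without an RPKM filter and 46 and 309 at a mean RPKM of 1. MXD4, MNT and MGA lie under the expression minimum, and their depth limits what can be seen of them. No paired analysis was possible because each condition has 1 library.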

Other observations

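MGA was at 0.00627 to 0.0129 RPKM in the 4 libraries, and the level of the genes around it on chromosome 15 varied. MAPKBP1, whose start lies 4490 bases past the end of MGA on the same strand, was at 0.358 with SM-164 and 0.372 with DMSO, and at 0.334 in the CD30L+ CHO library and 0.377 in the CHO library. TYRO3, 81073 bases before MGA on the same strand, was at 0.0973 to 0.150, and EHD4, on the other strand, at 0.770 to 0.944. LTK, at 0.00214 to 0.0223, and SPTBN5, at 0.000475 to 0.00632, both on the other strand, were as low as MGA or close to it. The antisense strand of MGA had 0 to 3 reads per library, beside 18 to 65 on its own strand.

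PRELID1, which overlaps MXD3 on the other strand, was at 11.7 RPKM with SM-164 and 11.7 with DMSO, and at 5.99 in the CD30L+ CHO library and 5.13 in the CHO library. MXD3 was lower on CD30L+ CHO cells than on CHO cells, and PRELID1 was not. Both were lower on CHO cells than with DMSO, where MXD3 was at 0.685 of the DMSO level (0.612 to 0.767). The part of the overlap in these values was not tested.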
